A study of Mus musculus with 8 samples.

Results

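The genes described here encode the subunits, activators and assembly chaperones of the proteasome. They are the rows of the count table whose symbol is Psma, Psmb, Psmc, Psmd, Psme, Psmf or Psmg followed by a number, with a mean of at least 1 CPM (counts divided by a scaled total for each library) over 8 libraries. Of 55536 genes in the table, 48 had such a symbol and 45 met the level, and these 45 also passed the filter for testing. The 3 below the level were Psmb8, Psmb11 and Psma8. The gene just inside was Psmb9, at a mean of 1.04 CPM on scaled totals, and the gene just outside was Psmb8, at 0.175 CPM. Poly(A) RNA was sequenced from alphaTC6, a mouse line of glucagon-producing pancreatic alpha cells labelled wild type, collected 48 h after reverse transfection with a lipid reagent. One group of 4 libraries received a scramble siRNA as the control and the other group of 4 received a pool of siRNAs against Klf4, a zinc finger transcription factor. Batch 1 held scramble replicates 1 and 2 and Klf4 siRNA replicates 1, 2 and 4, and batch 2 held scramble replicates 3 and 4 and Klf4 siRNA replicate 3. The extraction protocol given for these samples speaks of islets, which conflicts with the cell line named elsewhere in their labels. All 8 libraries were labelled as that single cell line, what the batch number stands for was not given, and the design text calls the 4 libraries of a group biological replicates without saying how the cultures were separated.

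The proteasome is the main protease of the cytosol and nucleus. A barrel, the 20S core, is built of 2 outer rings of alpha subunits and 2 inner rings of beta subunits, and 3 of the beta subunits (Psmb5, Psmb6 and Psmb7) cut protein chains. The 19S cap binds ubiquitin-tagged proteins, unfolds them with a ring of ATPases and removes the ubiquitin with the lid enzyme Psmd14. In immune cells, or after interferon, the cutting subunits can be replaced by Psmb8, Psmb9 and Psmb10, which form the immunoproteasome and favour peptides for display on class I molecules. Hormone-secreting cells depend on the proteasome to clear misfolded proteins retrieved from the endoplasmic reticulum. Many of its genes are known to be raised together by the transcription factor Nfe2l1 when proteasome activity is short.

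The libraries held between 45954151 and 64185987 counts, and the 45 genes took between 0.600% and 0.653% of them. Klf4 had 39.2, 35.1, 46.3 and 46.8 CPM in scramble replicates 1 to 4 and 12.5, 11.5, 19.8 and 18.8 CPM in Klf4 siRNA replicates 1 to 4, so that every knockdown library lay below every control. Its log2 fold change was -1.33 ± 0.17 (SE; edgeR quasi-likelihood test, Benjamini-Hochberg adjusted p = 0.0083). That adjusted p was 0.052 without scramble replicate 1 and 0.104 in batch 1 alone. Of 7 alpha cell markers all had counts in every library, whereas the insulin genes Ins1 and Ins2 and the beta cell factor Pdx1 had none. The other 2 of 5 beta cell markers were low, Mafa at 2.70 to 3.76 CPM and Iapp at 0.041 to 0.297 CPM. Ptprc, which marks blood cells, had at most 1 count. Between batches the summed alpha cell markers ranged from 2257 to 2477 CPM in batch 1 and from 9025 to 10281 CPM in batch 2, and its part in the batch differences was not tested. The 2 ductal markers summed to between 1.07 and 1.57 CPM in batch 1 and between 3.74 and 4.63 CPM in batch 2, and the 3 fibroblast markers to between 5.17 and 7.10 CPM and between 3.00 and 3.39 CPM. Nearly all of the ductal sum was Sox9 and of the fibroblast sum Pdgfra, with Krt19, Col1a1 and Col3a1 at or near 0. The sums of each of these lists overlapped between treatments.

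Levels were compared between genes as CPM per kilobase of annotated exon, averaged over the 8 libraries. The structural beta subunit Psmb2 was the most abundant at 158.1 CPM per kilobase, followed by the ATPase Psmc5 at 146.9 and the cap scaffold Psmd2 at 130.7. The median of the 14 constitutive core genes was 55.3 CPM per kilobase and that of the 17 genes of the cap was 61.3. That order turned with the length of the longest coding transcript, at 110.6 for the core and 99.4 for the cap. The assembly chaperones, which help the particle form and are not part of it, had a median of 11.8 CPM per kilobase of exon. Psmf1, a core-binding protein first described as an inhibitor, was at 8.36. Among the activators, Psme3 (nuclear PA28γ) stood at 95.7 CPM per kilobase, against 7.44 for Psme1 and 10.95 for Psme2, the pair that is induced by interferon. Psme2 has a near-identical copy, Psme2b, so that its reads could be split between the 2 genes.

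Within the core, Psmb5, the chymotrypsin-like cutting subunit, had the lowest level of the 14 constitutive genes. It stood at 29.8 CPM per kilobase, beside 36.1 for Psmb6 (caspase-like) and 45.1 for Psmb7 (trypsin-like). When the length of the longest coding transcript was used, the levels were 29.8, 84.7 and 133.1 CPM per kilobase, and Psmb5 was again lowest of the 14. The order of many other genes did depend on the length taken: Psma7 was at 75.6 CPM per kilobase of exon and at 200.8 per kilobase of its longest coding transcript. Of the 899 exon bases of Psmb5, 109 are shared with the microRNA gene Mir686 on the same strand, and how reads there were assigned was not given.

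**Figure D1:**
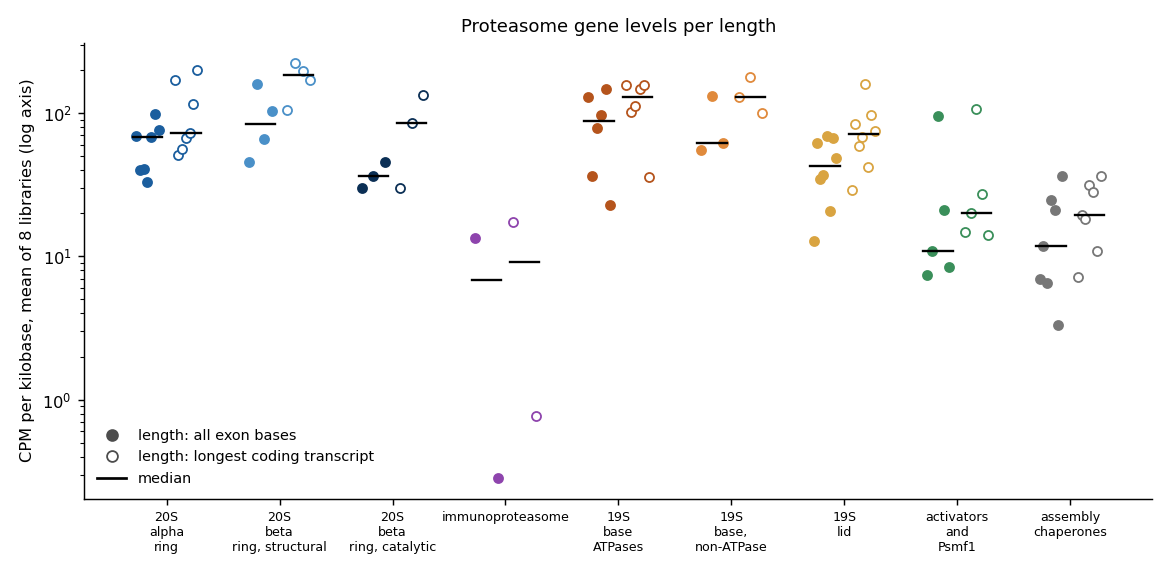
Level of each tested proteasome gene in CPM per kilobase (log axis, mean of 8 libraries), by subcomplex; filled points use all annotated exon bases, open points the longest coding transcript, and bars are medians. The chaperones, Psmf1 and the activators other than Psme3 lie below the medians of the core and of the cap, and Psmb9 is lowest at 0.284 CPM per kilobase of exon.

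The immune cutting subunits were scarce. Psmb10 was at 13.4 CPM per kilobase, Psmb9 at 0.284 and Psmb8 at 0.052, each below its constitutive counterpart (Psmb7, Psmb6 and Psmb5 in that order). Psmb8 had 9, 6, 19 and 18 counts in scramble replicates 1 to 4 and 3, 5, 11 and 8 counts in Klf4 siRNA replicates 1 to 4. Its 3 batch 2 libraries were all above its 5 batch 1 libraries, at depths too low for a test here. Psmb11, the thymus form, had at most 2 counts in any library and Psma8, the testis form, at most 1.

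The main comparison asked which proteasome genes changed with Klf4 siRNA, with batch as a term in the model. Of the 45 genes, 10 (22.2%) passed an adjusted p of 0.05 (edgeR quasi-likelihood), where 11.7% of all 16333 tested genes did. There were 8 genes higher (17.8%, against 4.88% of all genes) and 2 lower (4.44%, against 6.81%). The genes that rose were Psma1, Psma5 and Psma7 of the outer ring, Psmb3 of the inner ring, the ATPase Psmc2, the scaffolds Psmd1 and Psmd2, and the activator Psme3. The genes that fell were Psmf1 and Psmb5. All 10 changes were small, between -12.7% and 11.2% of the control level. The median log2 fold change of the 45 genes was 0.066, beside 4.3e-05 over all tested genes, and 35 of the 45 (77.8%) had a positive sign, beside 50% of all genes. An unadjusted p under 0.05 was reached by 23 of the 45, beside 23.9% of all genes. Within batch 1 the median was 0.084 and within batch 2, with its single Klf4 siRNA library, 0.033.

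**Figure D2:**
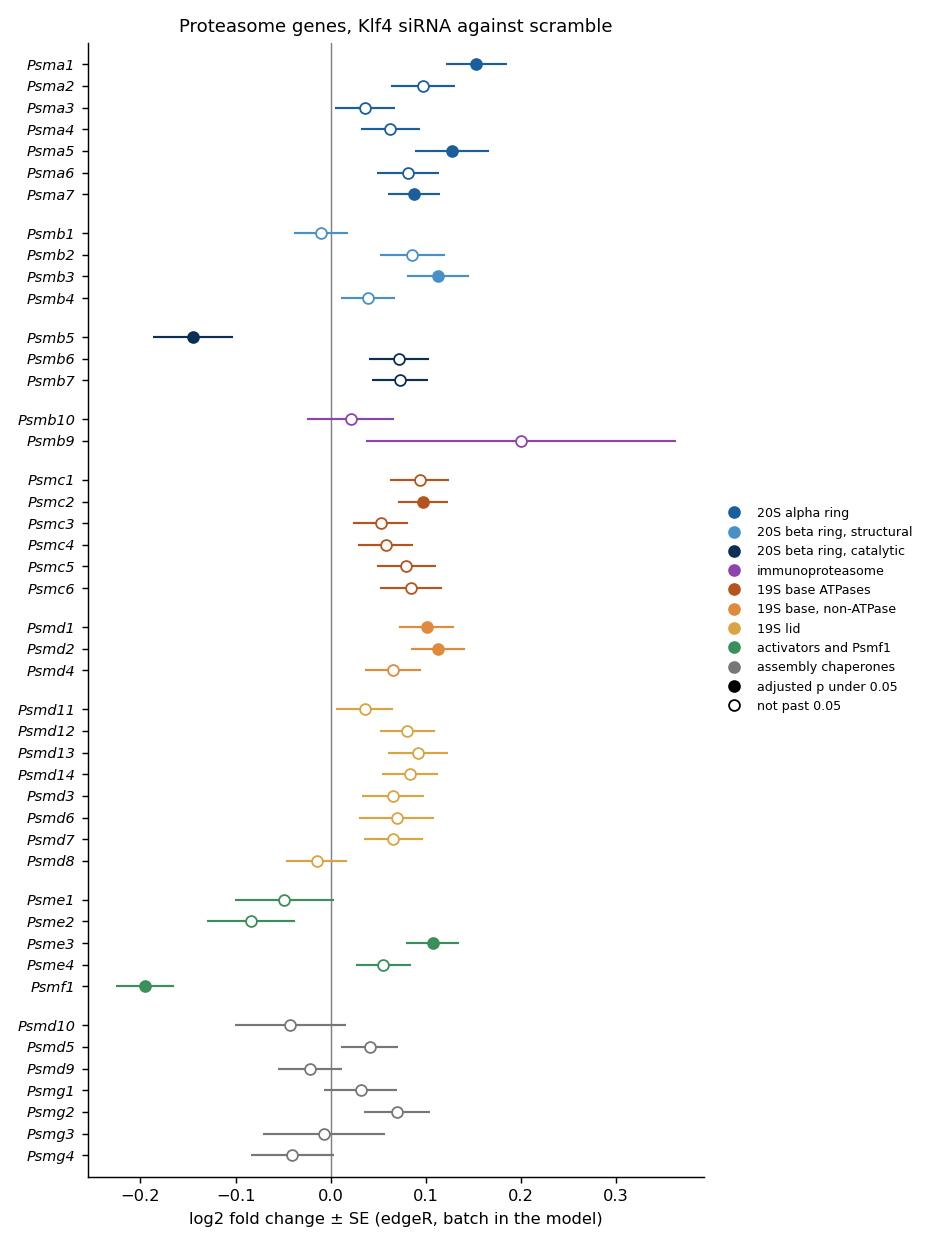
Log2 fold change with its standard error for 45 proteasome genes, Klf4 siRNA against scramble (4 libraries each, batch in the model), grouped by subcomplex; filled points passed an adjusted p of 0.05. Most core and cap genes sit to the right of 0, while Psmf1 (-0.20) and Psmb5 (-0.15) sit to the left.

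Psmf1 (ENSMUSG00000032869, chromosome 2, 151715812 to 151744186 of GRCm38, minus strand) changed most of the 10. It had 57.9, 58.2, 56.5 and 56.9 CPM in scramble replicates 1 to 4 and 49.6, 51.4, 50.3 and 49.8 CPM in Klf4 siRNA replicates 1 to 4. The groups did not overlap, and the low libraries were the knockdown libraries of both batches. The log2 fold change was -0.20 ± 0.030 (SE; adjusted p = 0.00016 by edgeR), from 57.4 ± 0.793 to 50.3 ± 0.805 CPM (SD, n = 4 each). Psmf1 passed the threshold in all 18 other fits, among them each with 1 library left out, where its adjusted p was at most 0.0034.

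Psma1 (ENSMUSG00000030751, chromosome 7, 114264606 to 114276118, minus strand), a subunit of the ring that gates entry to the core, rose most of the 8 genes called higher. Its levels were 187.8, 197.0, 190.6 and 193.8 CPM in scramble replicates 1 to 4 and 206.3, 220.1, 206.7 and 227.1 CPM in Klf4 siRNA replicates 1 to 4. Every knockdown library was above every control, with replicates 2 and 4 highest. The log2 fold change was 0.15 ± 0.032 (SE; adjusted p = 0.0031 by edgeR), and the call was lost without scramble replicate 1 (0.13, adjusted p = 0.055) and when batch was dropped from the model (0.16, adjusted p = 0.064).

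All 7 alpha ring genes had a positive sign, beside 50% of all tested genes, and 3 of the 7 were called higher, beside 4.88%. Psma5 went from 85.9 ± 3.17 to 94.1 ± 4.93 CPM (SD, n = 4 each; log2 fold change 0.13, adjusted p = 0.040 by edgeR). Psma7 went from 225.1 ± 3.28 to 239.5 ± 5.21 CPM (log2 fold change 0.088, adjusted p = 0.042 by edgeR). The libraries did not overlap for Psma7, and they did for Psma5, whose Klf4 siRNA replicate 1 lay below scramble replicate 4. With single libraries omitted, each call was lost in 6 of 8 fits, at adjusted p-values of up to 0.236 for Psma5 and 0.258 for Psma7. Psma2, Psma3, Psma4 and Psma6 did not pass, with log2 fold changes between 0.036 and 0.097.

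Among the beta subunits the catalytic and the structural genes were examined apart. Psmb5 (ENSMUSG00000022193, chromosome 14, 54614119 to 54618022, minus strand) had 27.8, 27.5, 29.3 and 28.1 CPM in scramble replicates 1 to 4 and 24.98, 26.6, 24.9 and 25.2 CPM in Klf4 siRNA replicates 1 to 4. All 4 knockdown libraries were below all 4 controls. Its log2 fold change was -0.15 ± 0.042 (SE; adjusted p = 0.028 by edgeR). The call held on few settings, however: it was lost in 10 of 18 other fits, with adjusted p-values of up to 0.245 (without Klf4 siRNA replicate 3), while the log2 fold change stayed between -0.17 and -0.11. The other cutting subunits, Psmb6 and Psmb7, did not pass and had the opposite sign, with log2 fold changes of 0.072 each (adjusted p = 0.166 and 0.128 by edgeR). Of the 4 structural genes Psmb3 alone passed, from 145.2 ± 5.24 to 155.4 ± 6.84 CPM (SD, n = 4 each; log2 fold change 0.11, adjusted p = 0.027 by edgeR). Psmb3 did not pass in 8 of the 18 other fits, with an adjusted p of up to 0.285. Psmb1, Psmb2 and Psmb4 had log2 fold changes of -0.010, 0.086 and 0.039.

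Of the 17 cap genes, 16 had a positive sign, beside 50% of all tested genes, and 3 were called higher, beside 4.88%. These 3 were Psmd1, Psmd2 and Psmc2. Psmd2, which docks ubiquitin-like domains of shuttle proteins, had 508.4, 510.1, 496.5 and 502.8 CPM in scramble replicates 1 to 4 and 543.7, 568.6, 523.4 and 568.5 CPM in Klf4 siRNA replicates 1 to 4. The groups did not overlap, and Klf4 siRNA replicate 3, the batch 2 library, was the lowest of its group. The log2 fold change of Psmd2 was 0.11 ± 0.028 (SE; adjusted p = 0.012 by edgeR), and without scramble replicate 1 or scramble replicate 2 the adjusted p was 0.096 and 0.092. Psmd1, its partner scaffold, had 366.4 and 368.1 CPM in the batch 1 controls and 388.8, 404.7 and 411.0 CPM in the batch 1 knockdowns. In batch 2 Psmd1 had 417.2 and 425.0 CPM in the controls and 436.1 CPM in the knockdown. The groups therefore overlapped when pooled and did not overlap within either batch, with a log2 fold change of 0.10 (adjusted p = 0.028 by edgeR). Without the batch term the log2 fold change of Psmd1 was 0.057 (adjusted p = 0.715), and with a replicate block in its place 0.059 (0.328). Psmd1 shares 252 exon bases with the serotonin receptor gene Htr2b on the opposite strand and 301 with other models on its own strand.

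All 6 ATPases had a positive sign, with log2 fold changes from 0.053 to 0.097, and Psmc2 passed. Psmc2 had 173.3, 172.7, 177.5 and 179.1 CPM in scramble replicates 1 to 4 and 181.5, 190.3, 187.2 and 189.0 CPM in Klf4 siRNA replicates 1 to 4, without overlap (adjusted p = 0.020 by edgeR). That call was lost in 9 of the 18 other fits, with an adjusted p of up to 0.145. None of the 8 lid genes passed at an adjusted p of 0.05, although 4 had an unadjusted p under 0.05 (edgeR). Psmd14, the deubiquitinase, was at 101.6 ± 3.66 CPM in control and 106.4 ± 2.98 CPM in knockdown libraries (SD, n = 4 each; log2 fold change 0.083, adjusted p = 0.074 by edgeR). Psmd13, a lid scaffold, went from 112.8 ± 4.19 to 119.5 ± 2.87 CPM without passing (log2 fold change 0.092, adjusted p = 0.065 by edgeR). Psmd12 shows how batch enters: its means over all libraries were 163.1 and 161.9 CPM, and with batch in the model its log2 fold change was 0.081 (adjusted p = 0.075 by edgeR). Psmd8 had a negative sign, at -0.015. Among the ATPases, Psmc1 came nearest to the threshold after Psmc2, from 240.9 ± 7.37 to 255.7 ± 8.43 CPM (log2 fold change 0.093, adjusted p = 0.055 by edgeR). The ubiquitin receptor Psmd4 of the base had a log2 fold change of 0.065 (adjusted p = 0.178 by edgeR).

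The activators did not move as a group. Psme3 had 280.7 and 274.8 CPM in the batch 1 controls and 301.1, 305.6 and 308.5 CPM in the batch 1 knockdowns. In batch 2 Psme3 had 260.2 and 257.5 CPM in the controls and 269.1 CPM in the knockdown. It rose by 0.11 ± 0.028 on the log2 scale (SE; adjusted p = 0.014 by edgeR), with an adjusted p of 0.080 and 0.140 when scramble replicate 1 or 2 was left out and 0.195 when batch was not modelled. Psme1, Psme2 and Psme4 did not pass, with log2 fold changes of -0.049, -0.084 and 0.055. The Psme2 libraries nevertheless did not overlap, all 4 knockdown libraries being lower (adjusted p = 0.286 by edgeR). None of the 7 chaperone genes passed, and none had an unadjusted p under 0.05 (edgeR), with log2 fold changes between -0.042 and 0.070. Psmd10, Psmd5 and Psmd9, which carry cap names and assist assembly of the ATPase ring, were at -0.042, 0.041 and -0.022, and Psmg1, of the pair that guides the alpha ring, was at 0.031. Its partner Psmg2 went from 34.98 ± 2.74 to 37.7 ± 1.61 CPM without passing (SD, n = 4 each; log2 fold change 0.070, adjusted p = 0.229 by edgeR). Psmb9 and Psmb10 did not pass either, at 0.20 with a standard error of 0.16 and at 0.021 with a standard error of 0.046.

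**Figure D3:**
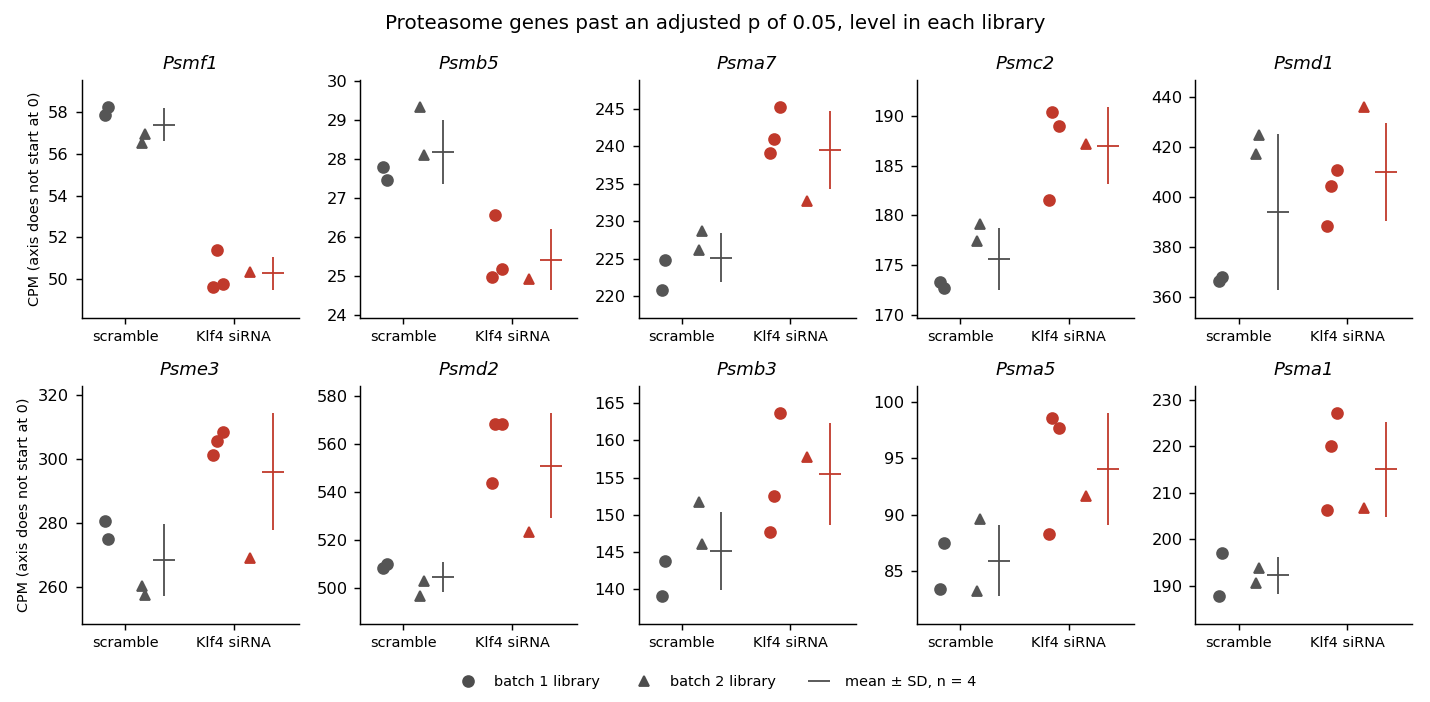
Level in CPM in each library for the 10 proteasome genes past an adjusted p of 0.05, with batch 1 as circles, batch 2 as triangles and the mean ± SD of 4 libraries beside them; the axes do not start at 0. Psmf1 and Psmb5 show knockdown libraries below all controls, and Psmd1 and Psme3 show the offset between batches.

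Over the 45 genes, 4 had all knockdown libraries above all controls (Psma1, Psma7, Psmc2 and Psmd2), where 4.97% of all tested genes did. There were 3 with all knockdown libraries below all controls (Psmf1, Psmb5 and Psme2), where 5.55% of all genes did. The summed level of the 45 genes was 5964 and 5995 CPM in the batch 1 controls and 6150, 6418 and 6542 CPM in the knockdowns. In batch 2 the sum was 6186 and 6287 CPM in the controls and 6396 CPM in the knockdown. The sum was thus higher after Klf4 siRNA by 6.53% within batch 1 and by 2.55% within batch 2, on group means. In bulk RNA, a change in the amount per cell and a change in the make-up of the culture cannot be told apart.

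The number of calls depended on single libraries. Without scramble replicate 1 only Psmf1 of the 10 passed, without scramble replicate 2 only Psmf1 and Psma1, and without Klf4 siRNA replicate 2 there were 6. Leaving out scramble replicate 4 gave 15 genes. Without the batch term Psmf1 alone passed, and with a replicate block in its place Psmf1, Psma1, Psma5 and Psmd2 did. Over all tested genes 1909 passed in the main fit, and 934 and 1012 without scramble replicate 1 or 2. Without the batch term 409 passed, and with the block 1220. Without scramble replicate 1 or 2, or without the batch term, the proteasome genes were thus not called more often than all genes.

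The difference between batches in the change was tested by an interaction term. No proteasome gene passed at an adjusted p of 0.05 (edgeR), and 0 of 45 had an unadjusted p under 0.05, where 0% and 3.31% of all tested genes did. In 34 of the 45 genes (75.6%) the sign was positive within both batches, beside 32.2% of all genes, and in 5 it was negative within both, beside 32.6%. The Wald test of DESeq2, the likelihood ratio test of edgeR and limma-voom gave 0 proteasome genes as well. Batch 2 has a single Klf4 siRNA library, which limits what this test can detect.

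Promoters were then searched for letters that known factors bind. RefSeq promoters (GRCm38.p6, 250 bases before to 50 after the start) matched 38 of the 45 genes. Those without an entry were Psmb1, Psmb2, Psmb7, Psmc3, Psmd3, Psmd7 and Psmg2. The letters TGACNNNGC, the core bound by Nfe2l1 and Nfe2l2 with small MAF proteins, were found on either strand in 6 of 38 genes (15.8%), against 14% of all 27025 genes with a RefSeq promoter. Of the genes that changed with Klf4 siRNA, 0 of the 8 that rose and 1 of the 2 that fell, Psmb5, held this core. Psmb6, a cutting subunit that did not pass, held it as well. The matches in Psmb5 and Psmb6 are shown because these genes had opposite signs, with the core in capitals and 8 bases on each side.
Psmb5, chr14:54618026-54618050, minus strand: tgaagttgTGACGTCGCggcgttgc
Psmb6, chr11:70525340-70525364, plus strand: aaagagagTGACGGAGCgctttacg
The letters CCCCACCC, a box of the kind bound by KLF proteins, were in 5 of 38 genes (13.2%) against 11.3% of all genes. They were in 1 of the 8 genes that rose (Psmc2) and in 0 of the 2 that fell.

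The letters CCAAT, a box bound by the factor NF-Y, were in 13 of 38 genes (34.2%) against 41.1% of all genes. Within 150 bases around the start they were in 11 of 38 (28.9%, without Psma7) against 26.3% of all genes. Over the full promoter they were in 5 of the 8 genes that rose and in 0 of the 2 that fell. The matches nearest to the start in these 5 genes are printed with the box in capitals, with 8 bases on each side, as the element most of the rising genes held; that of Psme3 is on the strand opposite to the gene.
Psma1, chr7:114276202-114276222, minus strand: gcttcctgCCAATcccacgtt
Psma7, chr2:180042648-180042668, minus strand: gcctgtcgCCAATgcgcgctc
Psmb3, chr11:97703383-97703403, plus strand: cccgccagCCAATggggagga
Psmc2, chr5:21785239-21785259, plus strand: gcctcgcgCCAATgcgcgcgg
Psme3, chr11:101316191-101316211, minus strand: cgtcacagCCAATcgccggca
The GC box GGGGCGGGG was in 6 of 38 genes (15.8%) against 12.9% of all genes. It was in 1 of the 8 genes that rose (Psma7) and in 0 of the 2 that fell. Over the full promoter each of the 4 shares of the 38 genes lay within 7 percentage points of the share over all genes. A match is a run of letters and not a shown binding site.

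The other genes of the pathway were taken from a list of 45, of which 44 were in the table and 42 were tested. There were 11 past the threshold (26.2%, against 11.7% of all genes), 9 higher and 2 lower, with a median log2 fold change of 0.045. Among 8 genes for partners and assembly factors, 5 rose and 0 fell, beside 4.88% and 6.81% of all genes. Sem1, a small lid subunit counted in this list, did not pass, at a log2 fold change of -0.068 (adjusted p = 0.136 by edgeR). Usp14, a deubiquitinase that docks on the cap, had 132.6, 134.3, 142.6 and 139.5 CPM in scramble replicates 1 to 4 and 148.0, 153.2, 153.7 and 157.4 CPM in Klf4 siRNA replicates 1 to 4. The groups did not overlap, at a log2 fold change of 0.17 (adjusted p = 0.00041 by edgeR). Adrm1, a ubiquitin receptor of the cap, went from 140.4 ± 5.04 to 157.6 ± 5.09 CPM (SD, n = 4 each; log2 fold change 0.16, adjusted p = 0.0017 by edgeR). Both passed in all 18 other fits. Ecpas, which tethers core and cap, and Pomp, the maturation factor of the core, rose by 0.095 and 0.11 on the log2 scale (adjusted p = 0.026 and 0.036 by edgeR), and each call was lost in some fits with a library left out (adjusted p of up to 0.129 and 0.228).

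Of 12 genes that deliver tagged proteins, 4 rose and 0 fell, beside the same shares of all genes. Zfand5, Ufd1 and Nploc4 rose by 0.15, 0.14 and 0.12 on the log2 scale (adjusted p = 0.0039, 0.0042 and 0.011 by edgeR), the latter 2 being the cofactors of the segregase Vcp. With a library left out these adjusted p-values reached up to 0.055, 0.059 and 0.115. Ddi2, the protease that activates Nfe2l1, fell by 0.14 (adjusted p = 0.0099, and up to 0.085 with a library left out by edgeR). Without the batch term the adjusted p was 0.586 for Ddi2, 0.384 for Nploc4 and 0.365 for Pomp, and for Ddi2 it was 0.127 with the replicate block, at -0.096 on the log2 scale. With that block Nploc4 and Pomp had adjusted p-values of 0.061 and 0.099. Nfe2l1 itself was at 355.6 ± 20.1 CPM in control and 365.1 ± 11.3 CPM in knockdown libraries (log2 fold change 0.062, adjusted p = 0.251 by edgeR), and Nfe2l2 had a log2 fold change of -0.048 (adjusted p = 0.447 by edgeR). None of the 6 genes for ubiquitin and its activation passed, at an adjusted or an unadjusted p of 0.05 (edgeR).

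Batch was compared next, with treatment in the model. Of the 45 genes, 10 (22.2%) differed between batches (edgeR, adjusted p under 0.05), where 32.7% of all tested genes did. There were 8 higher in batch 2 (17.8%, against 16.8% of all genes) and 2 lower (4.44%, against 15.9%). When libraries were scaled by their totals alone, the 10 genes called were 4 higher and 6 lower, the median of all genes being then -0.037. Psmd12, Psmb10, Psmc5 and Psmd1 were higher and Psmg2 and Psme3 lower under either scaling. The median log2 difference of the 45 genes was 0.028, beside 0.00065 over all genes, and 29 of the 45 had a positive sign, beside 50.2% of all genes.

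**Figure D4:**
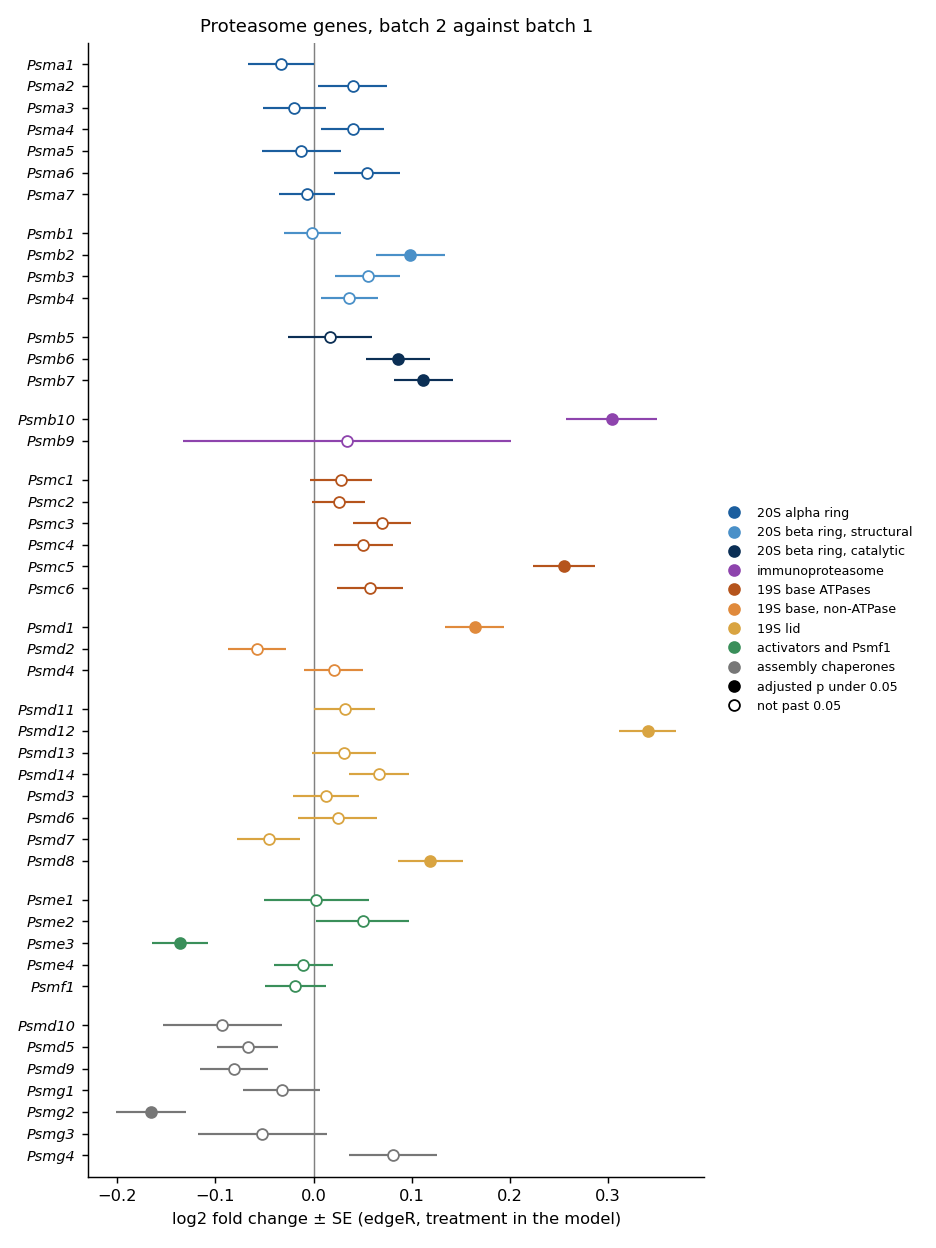
Log2 fold change with its standard error for 45 proteasome genes, batch 2 (3 libraries) against batch 1 (5 libraries), treatment in the model; filled points passed an adjusted p of 0.05. Psmd12, Psmb10 and Psmc5 lie farthest to the right, at 0.34, 0.30 and 0.26.

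Psmd12, a scaffold of the lid (ENSMUSG00000020720, chromosome 11, 107479484 to 107504362, plus strand), differed most. It had 143.0, 141.5, 148.4, 153.3 and 157.6 CPM in batch 1 (5 libraries) and 181.3, 186.6 and 188.4 CPM in batch 2 (3 libraries). The batches did not overlap, at a log2 difference of 0.34 ± 0.029 (SE; adjusted p = 1.18e-08 by edgeR). Psmc5, an ATPase (ENSMUSG00000020708, chromosome 11, 106256154 to 106263120, plus strand), had 184.8, 181.6, 189.9, 200.9 and 203.5 CPM in batch 1 and 219.0, 230.6 and 227.7 CPM in batch 2. The log2 difference was 0.26 ± 0.032 (SE; adjusted p = 2.49e-06 by edgeR). Over the 45 genes, 6 had all batch 2 libraries above all batch 1 libraries, where 15.8% of tested genes did, and 3 had them all below, where 13.6% did.

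These 2 genes start 1223 kilobases apart. Of the 16 other tested genes between their starts, 15 had a positive sign in batch 2 and 8 were called higher and 0 lower, with a median log2 difference of 0.21, where 16.8% of all tested genes were higher and 15.9% lower. Within 1 Mb of the start, 16 genes were higher and 2 lower of 32 around Psmc5, and 7 higher and 1 lower of 16 around Psmd12. Of the other proteasome genes on chromosome 11, Psme3, about 5 Mb from Psmc5, was lower in batch 2 at -0.14, Psmb6 was 0.086 higher, and Psmd11, Psmb3, Psmd3 and Psme4 did not pass. The median over all 1193 tested genes of chromosome 11 was 0.0014. Psmd1 on chromosome 1 was 0.16 higher in batch 2 (standard error 0.030, adjusted p = 0.00023 by edgeR), and of the 17 tested genes that start within 1 Mb of it, 10 were called higher and 0 lower, where 298 of the 999 tested genes of chromosome 1 were higher and 100 lower. Around Psmb10, which was higher, 7 of 56 neighbours were higher and 10 lower, and around Psmg2, which was lower, 3 of 19 were higher and 5 lower. By contrast Psmd14, which lies within 1 Mb of Gcg on chromosome 2, differed by 0.067 (adjusted p = 0.101 by edgeR) while 5 of its 6 tested neighbours were called higher, with a median of 2.22. Proximity was described here and its part in the difference between batches was not tested.

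**Figure D5:**
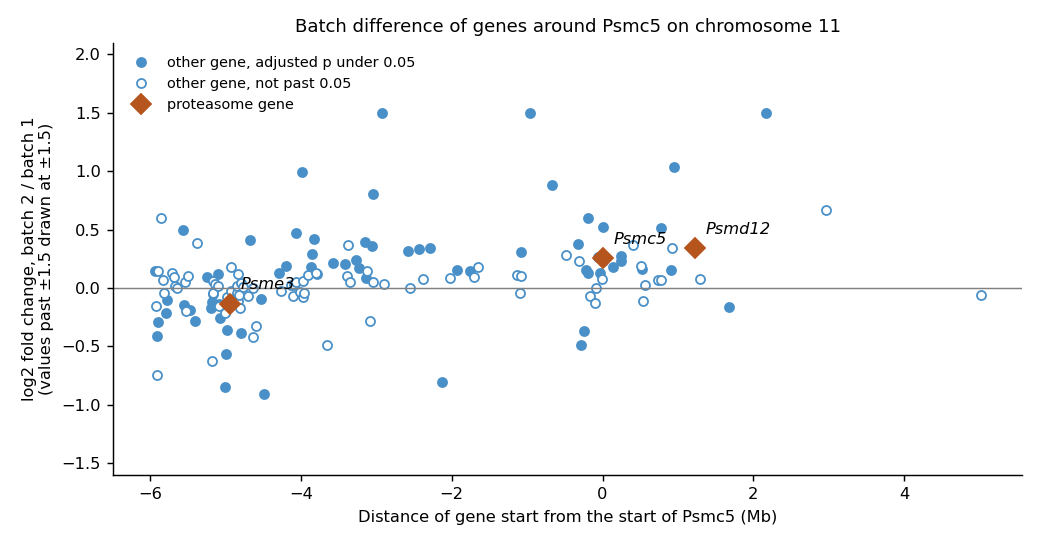
Log2 fold change, batch 2 against batch 1, of tested genes by the distance of their start from that of Psmc5 on chromosome 11 (Mb); diamonds are proteasome genes and filled circles other genes past an adjusted p of 0.05. From Psmc5 to Psmd12 nearly all points lie above 0 (15 of 16 other genes), whereas Psme3 lies below.

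Psmb10 (ENSMUSG00000031897, chromosome 8, 105935735 to 105938444, minus strand), the immune counterpart of Psmb7, had 20.5, 21.3, 20.02, 20.9 and 22.2 CPM in batch 1 and 24.99, 26.2 and 26.3 CPM in batch 2. The batches did not overlap, at a log2 difference of 0.30 ± 0.047 (SE; adjusted p = 3.32e-05 by edgeR). Genes of class I antigen processing, the pathway that Psmb10 serves, differed too. Of the 9 tested, 7 were higher in batch 2 and 0 lower (77.8%, against 16.8% of all genes higher), with a median log2 difference of 0.44. B2m, the light chain of class I molecules, went from 17.3 ± 0.673 CPM (SD, n = 5) in batch 1 to 34.2 ± 0.160 CPM (SD, n = 3) in batch 2. Tapbp, which loads peptides, and H2-K1, a heavy chain, were 1.42-fold and 1.44-fold higher, and Tap1, a peptide transporter, was 1.35-fold higher. H2-D1 and the interferon factor Irf1 did not pass, at -0.042 and -0.15 on the log2 scale. The 3 immune cell markers Ptprc, Cd68 and Csf1r summed to between 1.72 and 1.83 CPM in batch 1 and between 2.24 and 2.76 CPM in batch 2, with Ptprc at or near 0, and their part in this difference was not tested. Psmb9, which shares 212 exon bases with Tap1 on the opposite strand, differed by 0.034 ± 0.17 (SE; adjusted p = 0.905 by edgeR).

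Psmd8 of the lid and Psmb7 were 0.12 and 0.11 higher (adjusted p = 0.0084 and 0.0071 by edgeR), and both did not pass when scaled by totals alone (0.064 and 0.096) or with a replicate block (0.127 and 0.430, the latter at 0.065 on the log2 scale). Psmb2 and Psmb6 had adjusted p-values of 0.039 and 0.048 (edgeR) at 0.098 and 0.086. Psme3 and the chaperone Psmg2 were lower, at -0.14 and -0.17 (adjusted p = 0.00092 and 0.0012 by edgeR), and for Psme3 the adjusted p was 0.062 without Klf4 siRNA replicate 3. That of Psmg2 was 0.158 with the replicate block.

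The 45 genes varied little between libraries once batch and treatment were taken out. Their median residual standard deviation of log2 CPM was 0.042, beside 0.077 over all tested genes, and it ranged from 0.017 to 0.20 for Psmb9, the gene with the fewest counts. Residual spread depends on the number of counts, and levels were not matched between these sets.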

How the data were processed

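The table deposited by the authors holds raw counts of reads for each gene in 8 libraries. Per the submitters' processing notes, FastQC, STAR, featureCounts and DESeq2 were used with the build mm10, with no versions or settings; the use of strand was not given in the sources used here, and 10 of the 45 genes share exon bases with an annotation on the other strand. All 55536 rows matched GENCODE release M21 (GRCm38), and 0 columns were left unmapped. Libraries of a group differed by more than sampling noise (chi-square per degree of freedom of at least 10.2). P-values measure the spread between these libraries.

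Genes were kept with filterByExpr (16333), scaled by TMM and fitted with edgeR 4.0.16 (R 4.3.3, robust quasi-likelihood, ~ batch + treatment, 5 residual degrees of freedom), after the design text's mention of edgeR with batch correction. P-values were adjusted over all tested genes by the Benjamini-Hochberg method. CPM use TMM-scaled totals, except in the rule that chose the members. Within-batch changes are differences of mean log2 CPM (prior count 2). The fits were tested on simulated counts. Changes of 0.15 on the log2 scale were recovered in 25.4% of changed genes for treatment, 17.9% for batch and 1.49% for the interaction. At 0.3 these shares were 70.1%, 64.2% and 14.9%, so many changes of the sizes seen here would not be called.

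Alternatives used DESeq2 1.42.0 and limma 3.58.1. Genes named were Klf4, every member called with Klf4 siRNA, up to 6 members with the largest batch difference each way, the catalytic and immune subunits, the activators, Psmd4 and Psmd14, and from the pathway list at most 8 called genes with Nfe2l1, Nfe2l2, Pomp and Adrm1; other genes were named after their values were seen. The members and lists were chosen with earlier results of these data known. Paaf1, of the pathway list, was not analysed here. The values of 1 other gene of that list and 1 promoter match are not reported here.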

Additional observations from a re-analysis of the deposited data

Results flagged for a closer look

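In each group of 4 libraries, the gap between an extreme library and its nearest neighbour was divided by the whole range. In 92 such groups (45 proteasome genes and Klf4 in either treatment) 5 exceeded Dixon's critical value for 4 libraries, where chance passes about 1 in 20, or 4.6. Psmc6, an ATPase, was lowest in Klf4 siRNA replicate 1 at 77.8 CPM, against 82.9 CPM for the nearest library (0.914 of the range). Psmb5 was highest of the knockdown libraries in Klf4 siRNA replicate 2 at 26.6 CPM, against 25.2 CPM (0.842), and the call of Psmb5 held without that library (adjusted p = 0.018). Psme2 was highest of the controls in scramble replicate 3 at 21.01 CPM (0.849). The chaperones Psmg2 and Psmg3 were lowest in Klf4 siRNA replicate 3 at 35.3 CPM (0.832) and in scramble replicate 4 at 9.45 CPM (0.836). Klf4 siRNA replicate 3 is the only Klf4 siRNA library of batch 2, and Psmg2 was also lower in both batch 2 controls (32.4 and 32.8 CPM).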

How the results depend on the processing

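The count of 10 proteasome genes changed with Klf4 siRNA became 1 without the batch term, 4 with a replicate block in place of batch, 6 with library size alone, 2 with the likelihood ratio test of edgeR and 2 at an adjusted p under 0.01; it ranged from 1 to 15 when a library was left out. All called under these 5 settings were among the 10. Over all tested genes the 1909 calls became 409, 1220, 1455, 1331 and 997 in the same order. Proteasome genes were not called more often than all genes without the batch term, with the likelihood ratio test or at an adjusted p under 0.01. The 11 pathway genes became 3, 5, 7, 5 and 5 under the same settings, 7 in batch 1 alone, and 2 to 12 with a library left out. The 10 genes that differed between batches became 6 with a replicate block beside batch and treatment (5 of them among the 10), and 7 to 12 with a library left out. The interaction gave 0 proteasome genes in each fit that could be made; without Klf4 siRNA replicate 3 it could not be fitted. The log2 fold change of Klf4 was -1.39 in batch 1 alone, with an adjusted p of 0.104, and ranged from -1.47 to -1.24 with a library left out. Psmb10, not called with Klf4 siRNA, changed sign without the batch term (-0.058), with the replicate block (-0.057) and without Klf4 siRNA replicate 4; with a library left out it ranged from -0.00040 to 0.042. The CACCC box was in 3 of 38 genes (7.89%) within 150 bases around the start, against 6.55% of all genes. Same-numbered libraries deviated together in 3 of 4 pairs (correlations 0.49, 0.42, 0.72 and -0.34), the first 3 pairs each lie within 1 batch and the last spans both, and not every library correlated best with its own number, so the numbers were not taken as pairs. Alternatives for the pathway list, class I genes and the coding transcript length were chosen after seeing the data. The cause of these moves was not tested. Standard errors ran from 0.026 (Psmc2) to 0.16 (Psmb9) on the log2 scale, and genes such as Psmb8, at 3 to 19 counts, were too shallow to test.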
